A study of Mus musculus with 10 samples.

Results

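The mouse genes of the Wnt pathway's ligands, cell surface receptors, secreted antagonists and best known feedback targets were followed through the bladder RNA of 3 genotypes. The members were the protein-coding genes of GENCODE vM21 (build GRCm38) with a *Wnt*, *Fzd* (frizzled), *Sfrp* (secreted frizzled-related), *Dkk* (dickkopf) or *Rspo* (R-spondin) symbol, together with *Ndp*, *Lrp5*, *Lrp6*, *Frzb*, *Wif1*, *Sostdc1*, *Notum*, *Lgr5*, *Rnf43*, *Znrf3*, *Lef1*, *Tcf7*, *Axin2* and *Nkd1*. This gave 55 of the 55536 genes counted. They were 20 ligands, 12 receptors, 12 secreted antagonists, 7 genes of the R-spondin axis and 4 nuclear factors or intracellular targets.

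The 10 libraries came from C57BL/6 mice, 4 of *WT*, 3 of *OMD*-/- and 3 of *PRELP*-/-. Both knockouts are constitutive, with the coding sequence of the secreted proteoglycan osteomodulin (OMD) or PRELP removed in every cell and a β-galactosidase gene put in its place under the same promoter. No agent was given to any group, and age and sex are not stated for these animals. The deposited description is of homogenised bladder, whereas the study speaks of bladder epithelium, with other group sizes, and no label ties a library to an animal.

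Wnt proteins are secreted, lipid-modified ligands that bind frizzled receptors together with the co-receptors Lrp5 and Lrp6. In the canonical branch this spares β-catenin from degradation, and β-catenin then works with transcription factors of the TCF/LEF family, while other branches act on cell polarity and movement without β-catenin. Secreted antagonists hold the ligands or co-receptors, and R-spondins raise the signal by keeping the ligases Rnf43 and Znrf3 from clearing frizzled receptors. In the bladder, ligands are made both by the urothelium and by the stroma beneath it, and the stromal ligands take part in urothelial repair.

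The libraries held 20391437 to 46269079 counts. *Prelp* fell from 4848 to 15890 counts in *WT* to 46 to 74 in *PRELP*-/- and was at 16374 to 19429 in *OMD*-/-, whereas *Omd* had at most 12 counts in any *WT* library and 0 in each *OMD*-/- library, so that it checks the label weakly. *WT* replicates 1 and 2 carried 4 Y chromosome genes at 175 to 204 CPM (here of the unscaled total) and *WT* replicates 3 and 4 at most 0.0490. Sex and any other difference between these pairs therefore cannot be told apart. *OMD*-/- replicate 1 and *PRELP*-/- replicates 2 and 3 held both Y gene counts and 810 to 1212 counts of *Xist*, and whether animals were pooled or libraries mixed cannot be told from the labels. *OMD*-/- replicate 1 was closer to *PRELP*-/- replicates 2 and 3 (Pearson correlation of log2 CPM 0.990 and 0.989) than to *OMD*-/- replicates 2 and 3 (0.984 and 0.983). *PRELP*-/- replicate 1 stood apart from the other 9 libraries (0.931 to 0.958). It held the 4 Y genes at 97.9 CPM (unscaled) with only 7 counts of *Xist*, and had the fewest detected genes, 21221. The umbrella cell markers summed to 8826 to 22370 CPM in the 10 libraries, smooth muscle markers to only 192 to 1242, and the 5 markers of male accessory glands were at 0.

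Levels per length are given as CPM per kilobase of exon (RPKM). The highest ligand in *WT* was *Wnt5a*, a ligand best known for β-catenin independent signalling, at 53.4 ± 2.03 RPKM (SD, n = 4). It was followed by *Wnt4* at 39.0 ± 2.04, *Wnt2* at 31.2 ± 2.64 and *Wnt7b* at 18.9 ± 1.27, and these 4 differed from each other by more than their spread. Among the receptors *Fzd1* led at 32.4 ± 10.1 RPKM with the widest spread, ahead of *Fzd6* at 19.3 ± 0.506 and *Fzd7* at 18.8 ± 1.94, which did not differ beyond their spread. *Dkk3*, a divergent dickkopf protein, was the highest member of all at 63.2 ± 8.32 RPKM, ahead of the Lrp6 antagonist *Dkk2* at 25.2 ± 3.06. The ligases *Znrf3* (4.43 ± 0.238) and *Rnf43* (2.71 ± 0.268) exceeded the R-spondin receptor *Lgr5* (0.795 ± 0.0794), and *Nkd1*, a feedback inhibitor of dishevelled, led the last role at 6.63 ± 1.24.

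**Figure D1:**
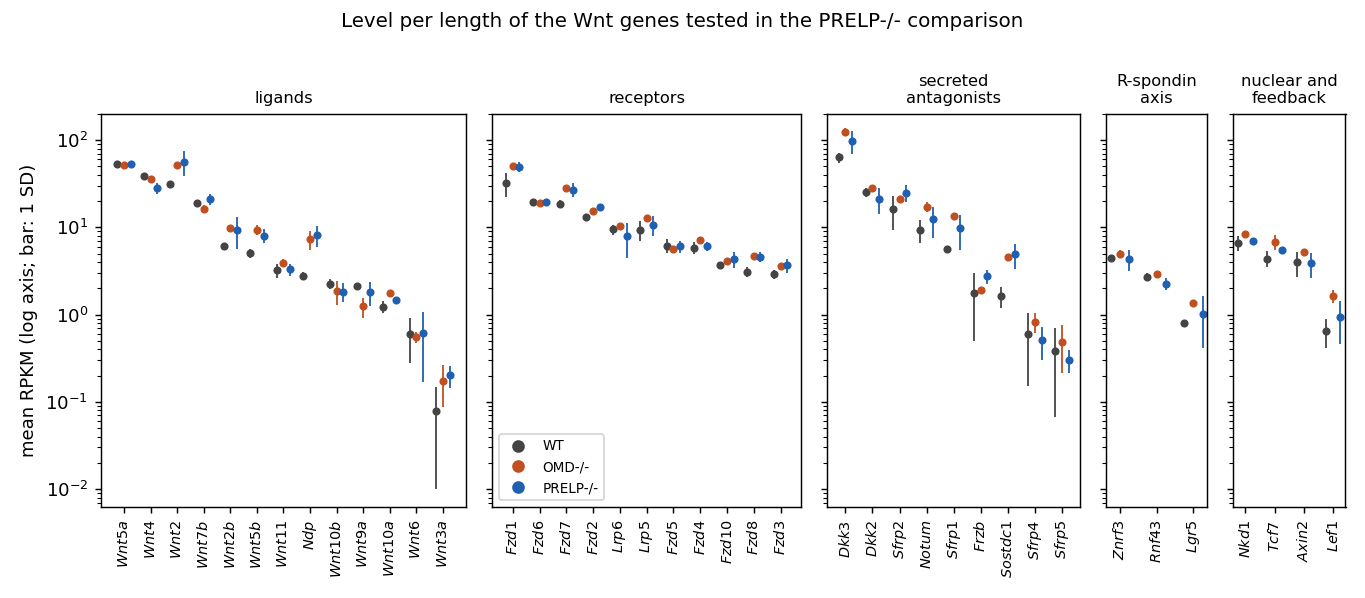
Mean RPKM on a log axis for the 40 members tested in *PRELP*-/- against *WT*, in 5 panels by role and ordered by the *WT* mean, with *WT* (grey, n = 4), *OMD*-/- (orange, n = 3) and *PRELP*-/- (blue, n = 3) side by side and bars of 1 SD. *Wnt5a* sat at about the same level in all genotypes (53.4, 52.0 and 52.9 RPKM), while the points for *Dkk3*, *Sfrp1*, *Ndp* and *Sostdc1* lay higher in the knockouts than in *WT*.

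At the other end, 3 members (*Wnt7a*, *Wnt8a* and *Dkk1*) had no count in any library, which allows a level of up to 0.0648 to 0.147 CPM, depending on the library. A further 13 were too low to be tested in *OMD*-/- against *WT*, with at most 29 counts in any library. These were all 4 R-spondins, *Wnt1*, *Wnt3*, *Wnt3a*, *Wnt8b*, *Wnt9b*, *Wnt16*, *Fzd9*, *Dkk4* and *Wif1*. The R-spondin with most counts, *Rspo1*, summed to 84 counts over the 10 libraries, so the ligands of the Lgr receptors were barely detected at this depth in any genotype.

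In *OMD*-/- bladders, members of every role were higher than in *WT*. Of the 39 members tested in *OMD*-/- against *WT*, 16 passed an adjusted p of 0.05 (edgeR's quasi-likelihood test, Benjamini-Hochberg adjustment over 16647 genes), 15 of them higher and 1 lower. Over all genes tested 29.4% passed, 14.3% higher and 15.1% lower, and among the members 41.0% passed. Without *OMD*-/- replicate 1, 14 members were called, all among the 16, with 25.5% of all genes called. The median log2 fold change was 0.36 over the tested members and -0.0002 over all genes tested. By role, 5 of 12 tested ligands, 4 of 11 receptors, 4 of 9 antagonists, 1 of 3 genes of the R-spondin axis and 2 of 4 nuclear or intracellular members passed. In bulk RNA a change in the number of cells of a type and a change in RNA per cell cannot be told apart.

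The sum of the fibroblast markers was also higher in *OMD*-/-. The 8 markers summed to 8198 to 9398 CPM in *WT* and 17570 to 21420 in *OMD*-/-, without overlap, and 5 of the 8 were called, all higher. *Dpt* (7.16 to 26.3 CPM in *WT*, 10.03 to 11.9 in *OMD*-/-) and *Lum* (57.2 to 132 and 79.1 to 104) lay within the *WT* range. In *PRELP*-/- the fibroblast sum was 19490 and 19080 CPM in replicates 2 and 3 but 9931 in replicate 1, which held the highest umbrella cell sum, 22370 CPM against 12720 and 13230. The umbrella cell marker *Krt20* went the other way there, at 147 CPM against 204 to 244.5 in the other libraries. The umbrella cell markers were also higher in *OMD*-/- (11100 to 15040 CPM) than in *WT* (8826 to 10560), and 3 of 6 were called higher. The 6 leukocyte markers summed to 77.5 to 83.1 CPM in *WT* and 99.3 to 209 in *OMD*-/-, with 4 called higher. The 5 endothelial markers summed to 143 to 309 CPM in *WT* and 351 to 408 in *OMD*-/-, and 0 of the 5 were called. The 4 basal urothelial markers summed to 2340 to 3016 CPM in *WT* and 3083 to 4274 in *OMD*-/-, with 1 of 3 tested called higher, and the 4 proliferation markers to 7.16 to 11.4 and 11.4 to 26.9, where all 3 tested were called higher. The part of these cells in the results on Wnt genes was not tested.

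**Figure D2:**
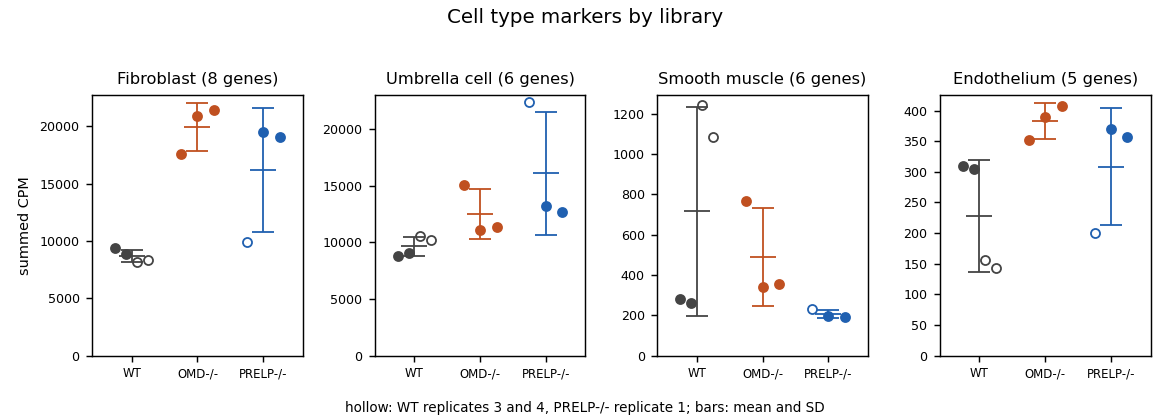
Summed CPM of marker genes of fibroblasts, umbrella cells, smooth muscle and endothelium, a panel each on its own linear axis, with 1 point per library, the mean and SD of each genotype as bars, and hollow points for *WT* replicates 3 and 4 and *PRELP*-/- replicate 1. All *OMD*-/- libraries and *PRELP*-/- replicates 2 and 3 lay between 17570 and 21420 CPM for fibroblast markers, *PRELP*-/- replicate 1 at 9931 beside *WT*, and smooth muscle separated *WT* replicates 3 and 4 (1083 and 1242) from 1 and 2 (262.5 and 279.8).

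Among the ligands, *Ndp*, *Wnt2*, *Wnt2b* and *Wnt5b* rose in *OMD*-/- and *Wnt9a* fell. *Ndp* (ENSMUSG00000040138, chrX:16885521-16911774) encodes norrin, a ligand outside the Wnt family that signals through Fzd4. It measured 5.94, 5.45, 4.65 and 5.49 CPM in *WT* replicates 1 to 4, 18.2, 13.01 and 11.3 in *OMD*-/- replicates 1 to 3 and 11.1, 17.1 and 19.0 in *PRELP*-/- replicates 1 to 3. Every knockout library of either genotype lay above every *WT* library. The difference was 2.62-fold in *OMD*-/- (log2 1.39 ± 0.17 SE, adjusted p = 0.000288) and 2.89-fold in *PRELP*-/- (1.53 ± 0.21, adjusted p = 0.00518). The *PRELP*-/- call of *Ndp* was lost against either *WT* pair alone (adjusted p = 0.122 and 0.0596), with the replicate block (0.103) and with close libraries summed (0.287).

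*Wnt2* (ENSMUSG00000010797, chr6:17988940-18030585), a canonical ligand typical of mesenchyme, was the most abundant ligand to change. Its CPM were 71.1, 78.4, 66.3 and 65.4 in *WT*, 122, 113 and 114 in *OMD*-/- and 174, 108 and 101 in *PRELP*-/-, again without overlap between *WT* and either knockout. The change was 1.66-fold in *OMD*-/- (log2 0.73 ± 0.082, adjusted p = 0.000166, edgeR) and 1.78-fold in *PRELP*-/- (0.83 ± 0.20, adjusted p = 0.0382). *PRELP*-/- replicate 1 had the highest *Wnt2* of all 10 libraries. The *PRELP*-/- call of *Wnt2* was lost, at an adjusted p of 0.0647 to 0.124, without any of the 4 *WT* replicates or without *PRELP*-/- replicate 2, and with the replicate block (0.236), the Y gene covariate (0.173) or close libraries summed (0.439). Within the *WT* pairs its *PRELP*-/- log2 fold change was 0.74 against replicates 1 and 2 (adjusted p = 0.324) and 0.94 against 3 and 4 (adjusted p = 0.152).

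*Ndp* and *Wnt2* are the ligands that were called in both knockouts, so the sequence around their annotated start is shown. Each window runs 5′ to 3′ on the gene's strand from 250 bases before to 50 bases after the start, from RefSeq on GRCm38.p6, chrX:16911725-16912024 for *Ndp* and chr6:18030396-18030695 for *Wnt2*, both on the minus strand.
Ndp: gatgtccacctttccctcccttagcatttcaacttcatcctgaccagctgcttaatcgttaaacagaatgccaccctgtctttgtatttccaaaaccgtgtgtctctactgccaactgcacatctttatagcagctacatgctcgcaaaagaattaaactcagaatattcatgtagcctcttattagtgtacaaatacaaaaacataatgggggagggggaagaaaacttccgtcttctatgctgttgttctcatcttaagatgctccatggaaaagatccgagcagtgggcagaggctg
Wnt2: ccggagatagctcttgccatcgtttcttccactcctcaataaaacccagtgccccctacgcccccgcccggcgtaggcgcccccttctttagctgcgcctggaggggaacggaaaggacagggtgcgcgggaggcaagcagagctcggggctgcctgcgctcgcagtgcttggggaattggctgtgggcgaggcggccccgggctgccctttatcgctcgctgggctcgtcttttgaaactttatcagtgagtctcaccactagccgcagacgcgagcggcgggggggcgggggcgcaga
Neither window holds the TCF/LEF motif searched for (CTTTGAA or CTTTGAT on either strand), which is found in 8.65% of all 32851 windows of this length. G and C made up 43.0% of the *Ndp* window and 65.7% of the *Wnt2* window. Of the 55 members, 35 have a window, and 3 of these 35 hold the motif in 1 of theirs (*Dkk1*, *Wnt11* and *Wnt5b*).

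*Wnt5b* (ENSMUSG00000030170, chr6:119432531-119544347), a ligand close in sequence to *Wnt5a*, is the called member among these 3. Its motif stands in capitals, 71 bases before a transcript start inside the gene, at chr6:119449337-119449636 on the minus strand, while its other 2 windows have none.
Wnt5b: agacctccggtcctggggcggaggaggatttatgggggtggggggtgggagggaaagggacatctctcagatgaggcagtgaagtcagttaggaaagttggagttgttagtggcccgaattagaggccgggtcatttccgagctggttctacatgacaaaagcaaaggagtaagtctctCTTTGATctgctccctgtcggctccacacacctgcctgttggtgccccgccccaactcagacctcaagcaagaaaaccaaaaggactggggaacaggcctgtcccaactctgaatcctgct
The gene measured 12.9, 15.8, 12.8 and 12.5 CPM in *WT*, 21.1, 25.8 and 27.9 in *OMD*-/- and 16.9, 23.2 and 23.8 in *PRELP*-/-. All knockout libraries were above all *WT* libraries, and *OMD*-/- differed by 1.85-fold (log2 0.89 ± 0.13, adjusted p = 0.000796, edgeR). Its *PRELP*-/- log2 fold change of 0.65 ± 0.18 did not pass (adjusted p = 0.0613). *Wnt5a* itself measured 412, 419, 400.1 and 438 CPM in *WT*, 392, 417 and 412 in *OMD*-/- and 399, 415 and 427 in *PRELP*-/-, with overlapping groups and log2 fold changes of -0.038 ± 0.079 and -0.032 ± 0.13.

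*Wnt2b* (ENSMUSG00000027840, chr3:104945272-104961921), a canonical ligand, measured 29.1, 23.2, 25.2 and 24.2 CPM in *WT* and 41.4, 41.3 and 42.3 in *OMD*-/-, an increase of 1.63-fold (log2 0.71 ± 0.095, adjusted p = 0.000463, edgeR). *PRELP*-/- replicates 2 and 3 were higher still at 47.7 and 48.8 CPM, and replicate 1 was below every *WT* library at 21.3. The only member called lower was *Wnt9a* (ENSMUSG00000000126, chr11:59306928-59333552), another canonical ligand. It had 6.64, 7.37, 7.21 and 6.99 CPM in *WT*, 3.06, 4.07 and 5.25 in *OMD*-/- and 8.12, 5.01 and 4.87 in *PRELP*-/-. In *OMD*-/- it fell by 0.77 ± 0.20 on the log2 scale (adjusted p = 0.0142), and the adjusted p was 0.0571 without *OMD*-/- replicate 2 and 0.0908 with close libraries summed. *Wnt4*, a ligand of high level made by many epithelia, had 163, 176, 161 and 155 CPM in *WT*, 134, 154 and 161 in *OMD*-/- and 98.3, 129.7 and 127 in *PRELP*-/-. All *PRELP*-/- libraries were below all *WT* libraries, and its log2 fold change of -0.48 ± 0.15 did not pass (adjusted p = 0.0861), nor did that of -0.13 ± 0.089 in *OMD*-/-.

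Of the frizzled receptors, *Fzd7*, *Fzd8*, *Fzd1* and *Fzd3* rose in *OMD*-/-, by 1.25- to 1.58-fold. *Fzd7* (ENSMUSG00000041075, chr1:59482424-59486955) had 84.0, 90.3, 73.0 and 92.7 CPM in *WT*, 126, 131 and 128 in *OMD*-/- and 96.6, 135 and 136 in *PRELP*-/-, and every knockout library was above *WT*. The increase of 1.51-fold in *OMD*-/- passed (log2 0.60 ± 0.091, adjusted p = 0.000967, edgeR) and that of 0.51 ± 0.17 in *PRELP*-/- did not (adjusted p = 0.103). *Fzd8* (ENSMUSG00000036904, chr18:9212163-9218136) showed the same order, with 15.8, 21.7, 18.6 and 18.0 CPM in *WT*, 26.3, 28.6 and 28.2 in *OMD*-/- and 23.3, 28.9 and 29.7 in *PRELP*-/-. Its log2 fold changes were 0.58 ± 0.12 (adjusted p = 0.00414) and 0.54 ± 0.16 (adjusted p = 0.0811).

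*Fzd1* (ENSMUSG00000044674, chr5:4753839-4758035), the most abundant frizzled, had 219, 212 and 213 CPM in *OMD*-/- and 175, 226 and 220.0 in *PRELP*-/-. In *WT* the pairs were far apart, with 168 and 176 CPM in replicates 1 and 2 and 96.8 and 102 in 3 and 4. Its 1.58-fold increase in *OMD*-/- (log2 0.66 ± 0.20, adjusted p = 0.0380, edgeR) was 0.31 on the log2 scale against the first *WT* pair (adjusted p = 0.0106) and 1.11 against the second (adjusted p = 1.22e-05). The call was lost, at adjusted p from 0.0613 to 0.184, without *WT* replicate 3 or 4 or any *OMD*-/- replicate, with no filter on low counts (0.184), with close libraries summed and in 1 fit of all libraries. *Fzd3* (ENSMUSG00000007989, chr14:65192449-65262463), a receptor tied to cell polarity, rose 1.25-fold from 34.1, 42.5, 33.1 and 38.2 CPM in *WT* to 47.6, 44.0 and 46.7 in *OMD*-/- (log2 0.32 ± 0.10, adjusted p = 0.0343), and measured 36.9, 50.9 and 53.5 in *PRELP*-/-. Its call was lost, at 0.0694 to 0.178, without *WT* replicate 1 or 3 or any *OMD*-/- replicate, against *WT* replicates 1 and 2 alone, with the replicate block, with close libraries summed and in 1 fit of all libraries. *Fzd6*, a polarity receptor of epithelia, overlapped in all groups, at 92.1, 95.3, 89.98 and 94.6 CPM in *WT*, 84.7, 93.3 and 99.0 in *OMD*-/- and 87.0, 97.5 and 99.4 in *PRELP*-/- (log2 fold changes -0.011 ± 0.081 and 0.0062 ± 0.12). The other 6 tested receptors had log2 fold changes from -0.15 (*Fzd5*) to 0.46 (*Lrp5*) in *OMD*-/- and from -0.27 (*Lrp6*) to 0.38 (*Fzd2*) in *PRELP*-/-, and did not pass (smallest adjusted p 0.0594 for *Lrp5* and 0.111 for *Fzd2*).

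**Figure D3:**
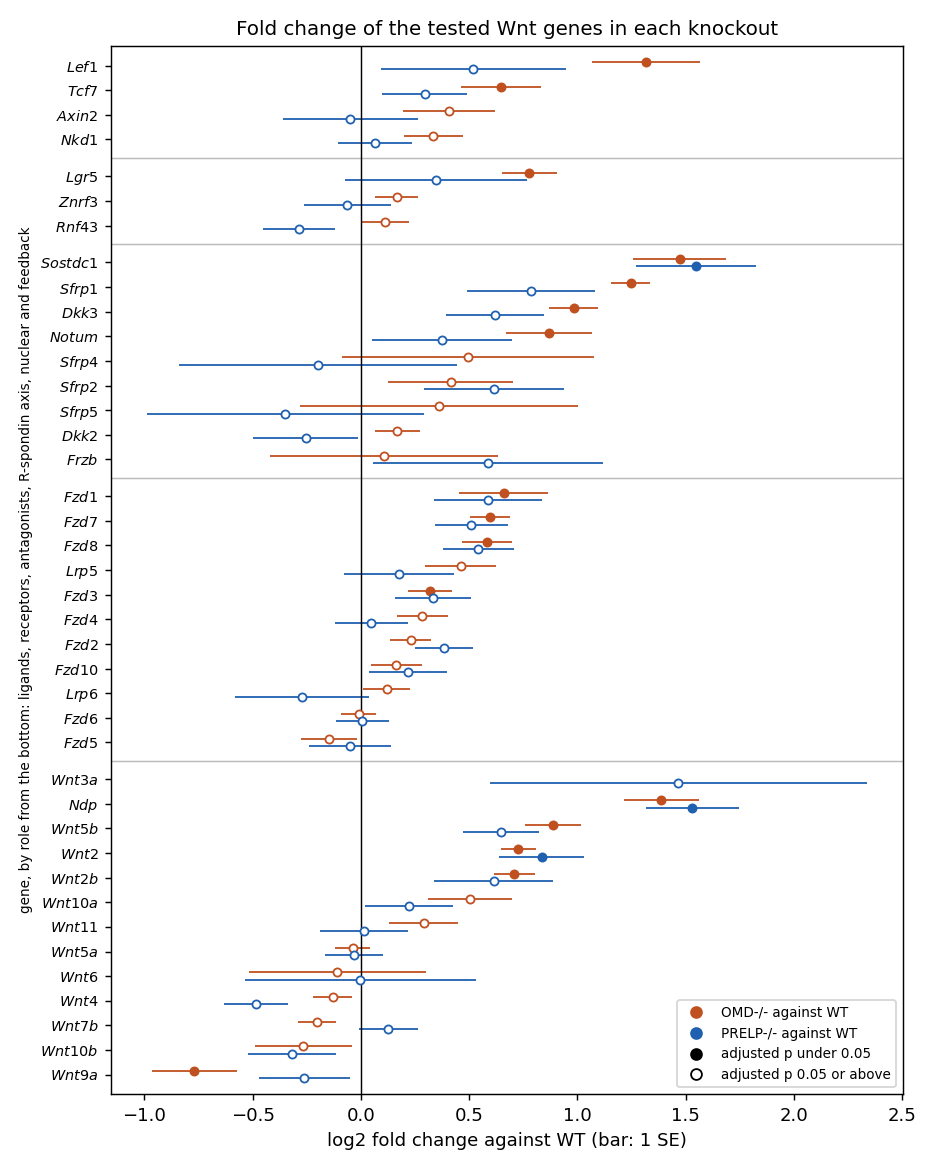
Log2 fold change against *WT* with 1 SE for each tested member in *OMD*-/- (orange) and *PRELP*-/- (blue), grouped by role with ligands at the bottom, filled where the adjusted p was under 0.05. Of the 16 filled orange points 15 lie right of 0 and *Wnt9a* left of it at -0.77, and the 3 filled blue points are *Ndp* (1.53), *Sostdc1* (1.55) and *Wnt2* (0.83). Both comparisons use the same 4 *WT* libraries.

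The secreted antagonists *Sostdc1*, *Sfrp1*, *Dkk3* and *Notum* rose in *OMD*-/-. *Sostdc1* (ENSMUSG00000036169, chr12:36314139-36318452), with the largest fold change of the called members in both knockouts, encodes an inhibitor of both Lrp co-receptors and bone morphogenetic proteins. It measured 3.05, 4.01, 2.43 and 2.17 CPM in *WT*, 8.95, 7.37 and 8.04 in *OMD*-/- and 11.9, 7.17 and 7.07 in *PRELP*-/-, with no overlap between *WT* and either knockout. The increase was 2.77-fold in *OMD*-/- (log2 1.47 ± 0.21, adjusted p = 0.000777, edgeR) and 2.92-fold in *PRELP*-/- (1.55 ± 0.28, adjusted p = 0.0143). As for *Wnt2*, the highest library was *PRELP*-/- replicate 1. Without *WT* replicate 3 the *PRELP*-/- call was lost (adjusted p = 0.0538), as it was (adjusted p = 0.0702) in a fit that carried Y gene presence as a covariate, against *WT* replicates 1 and 2 alone (0.171), with the replicate block (0.120) and with close libraries summed (0.231).

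*Sfrp1* (ENSMUSG00000031548, chr8:23411502-23449632) encodes a soluble frizzled-like protein that holds Wnt ligands, and had the smallest adjusted p of the set. It measured 24.4, 27.7, 22.9 and 23.3 CPM in *WT* and 56.0, 60.3 and 58.7 in *OMD*-/-, a 2.37-fold increase (log2 1.25 ± 0.090, adjusted p = 9.87e-06, edgeR). *PRELP*-/- replicates 2 and 3 stood at 55.9 and 50.7 CPM and replicate 1 at 21.6, below all *WT* libraries, and the comparison did not pass (log2 0.79 ± 0.29, adjusted p = 0.135). *Dkk3* (ENSMUSG00000030772, chr7:112116017-112159057) went the same way, from 243, 229.6, 189 and 188 CPM in *WT* to 377, 445 and 437 in *OMD*-/-. Its change was 1.98-fold (log2 0.98 ± 0.11, adjusted p = 0.000174), while *PRELP*-/- had 387 and 383 CPM in replicates 2 and 3 and 219 in replicate 1.

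*Notum* (ENSMUSG00000042988, chr11:120653788-120661175), a secreted enzyme that strips the lipid from Wnt ligands and is itself a Wnt target, had 29.5, 27.2, 16.9 and 16.9 CPM in *WT*, 35.9, 43.2 and 45.4 in *OMD*-/- and 16.8, 39.1 and 33.3 in *PRELP*-/-. The *OMD*-/- libraries were above all *WT* libraries (log2 0.87 ± 0.20, adjusted p = 0.00962, edgeR), by 0.55 against *WT* replicates 1 and 2 and 1.29 against 3 and 4. An antisense gene, *Notumos*, covers 29.4% of the exon bases of *Notum* at 3.49 CPM, and without the strand setting of the counting the split of reads between them is uncertain. *Dkk2* had 90.03, 79.0, 102 and 103 CPM in *WT*, 115, 100 and 101 in *OMD*-/- and 48.8, 92.6 and 95.8 in *PRELP*-/-, where replicate 1 was lowest, and its log2 fold changes of 0.17 ± 0.10 and -0.26 ± 0.24 did not pass. *Sfrp2*, *Sfrp4*, *Sfrp5* and *Frzb* were not called in either knockout (adjusted p of 0.260 or above, edgeR). Genes on the opposite strand also share 3.16% to 17.8% of the exon bases of *Axin2*, *Fzd5*, *Fzd6*, *Lef1*, *Sfrp2*, *Wnt5a*, *Wnt7b* and *Wnt11*, at up to 4.40 CPM, with the same uncertainty.

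**Figure D4:**
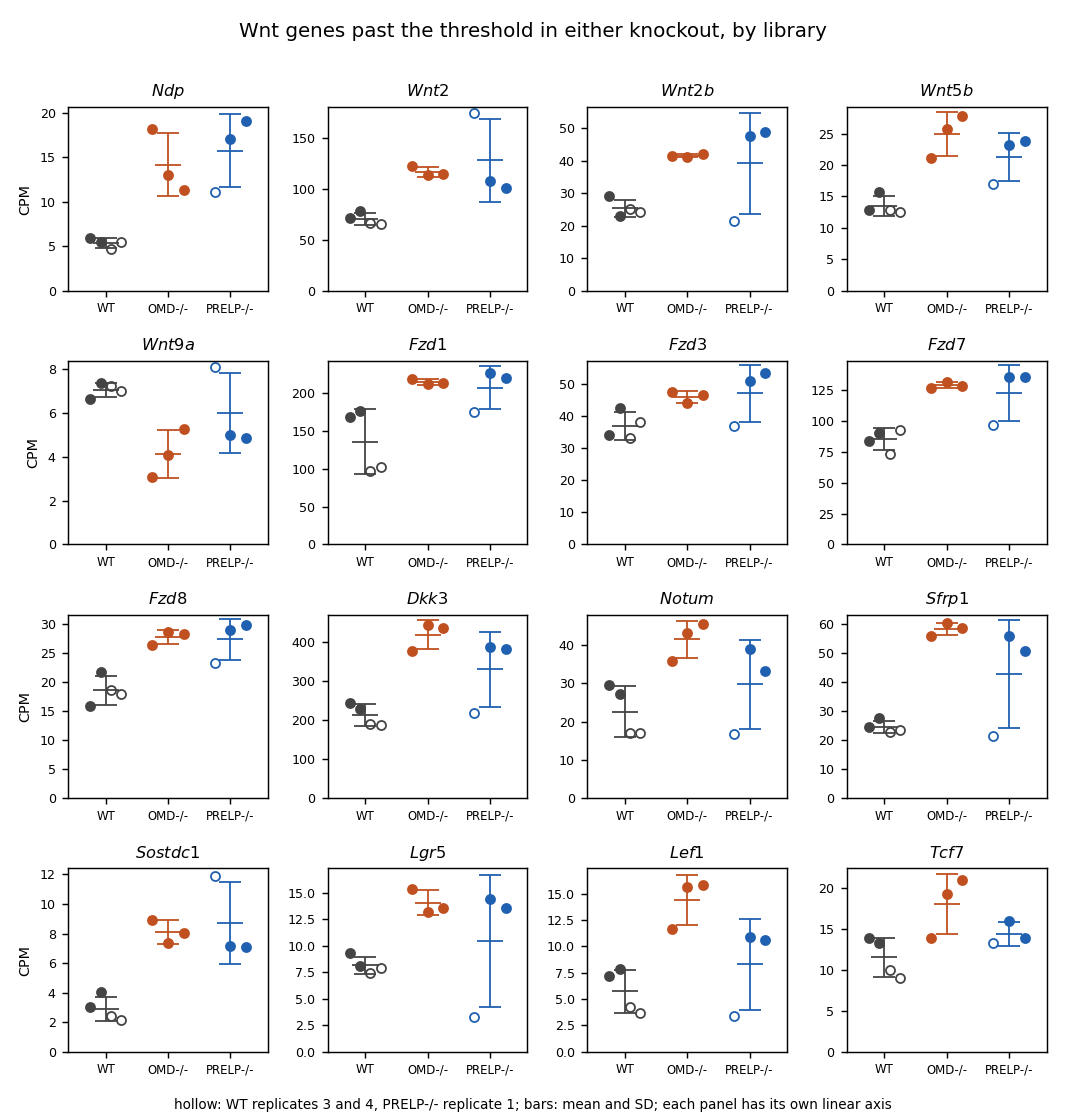
CPM of the 16 called members, a panel each on its own linear axis starting at 0, with 1 point per library and the mean and SD of *WT* (n = 4), *OMD*-/- (n = 3) and *PRELP*-/- (n = 3), and hollow points for *WT* replicates 3 and 4 and *PRELP*-/- replicate 1. The hollow *PRELP*-/- point lies below the *WT* points for *Sfrp1*, *Wnt2b*, *Lgr5*, *Lef1* and *Notum*, and is the highest of all 10 for *Wnt2* (174 CPM), *Sostdc1* (11.9) and *Wnt9a* (8.12).

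In the R-spondin axis the receptor *Lgr5* (ENSMUSG00000020140, chr10:115450311-115587780), a stem cell marker in several epithelia and a Wnt target, was the called gene. It had 9.31, 8.07, 7.39 and 7.88 CPM in *WT* and 15.4, 13.2 and 13.6 in *OMD*-/- (log2 0.78 ± 0.13, adjusted p = 0.00148, edgeR). *PRELP*-/- replicates 2 and 3 had 14.5 and 13.6 CPM and replicate 1 had 3.29, the lowest of all libraries. The related receptor *Lgr4*, outside the set, was at 10.8 RPKM in *WT* and was called lower in *OMD*-/- (log2 -0.33 ± 0.10, adjusted p = 0.0309, edgeR). It had 57.9 to 72.8 CPM in *WT* and 45.4 to 54.45 in *OMD*-/-. In *PRELP*-/- it did not pass (log2 -0.062 ± 0.15). *Znrf3* (35.1, 36.7, 32.3 and 35.7 CPM in *WT*, 34.7, 39.5 and 43.3 in *OMD*-/-, 23.3, 38.3 and 39.9 in *PRELP*-/-) overlapped between groups, with log2 fold changes of 0.16 ± 0.10 and -0.062 ± 0.20. *Rnf43* (17.9, 20.2, 16.1 and 16.8 CPM in *WT*, 18.0, 18.8 and 20.7 in *OMD*-/-, 12.3, 15.0 and 16.9 in *PRELP*-/-) also overlapped, with 0.11 ± 0.11 and -0.28 ± 0.17.

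Of the nuclear and intracellular members, the transcription factors were called and the feedback inhibitors were not. *Lef1* (ENSMUSG00000027985, chr3:131110471-131224356), a partner of β-catenin and a target of the pathway, had 7.17, 7.81, 4.25 and 3.72 CPM in *WT*, 11.7, 15.6 and 15.8 in *OMD*-/- and 3.35, 10.9 and 10.7 in *PRELP*-/-. It was 2.49-fold higher in *OMD*-/- (log2 1.32 ± 0.25, adjusted p = 0.00363, edgeR), by 0.94 against *WT* replicates 1 and 2 and by 1.85 against 3 and 4. *Tcf7* (ENSMUSG00000000782, chr11:52252371-52283014), of the same family and abundant in T cells, had 13.8, 13.3, 9.96 and 8.98 CPM in *WT*, 13.9, 19.2 and 21.0 in *OMD*-/- and 13.2, 16.0 and 13.8 in *PRELP*-/-. Its log2 fold change in *OMD*-/- was 0.65 ± 0.19 (adjusted p = 0.0238, edgeR). The T cell marker *Cd3e* was at 0.957 to 1.96 CPM in *WT* and 1.65, 5.93 and 5.80 in *OMD*-/-. In *PRELP*-/- replicates 1 to 3 *Cd3e* was at 3.46, 3.28 and 2.66 CPM. The part of T cells in the *Tcf7* values was not tested. The *Tcf7* call was lost without *WT* replicate 3 (adjusted p = 0.0598), *OMD*-/- replicate 2 (0.0905) or *OMD*-/- replicate 3 (0.114), against *WT* replicates 1 and 2 alone (0.0928), with the replicate block (0.0719) and with close libraries summed (0.167). *Nkd1* had 35.5, 34.4, 27.2 and 23.9 CPM in *WT*, 34.8, 38.3 and 41.5 in *OMD*-/- and 32.0, 32.4 and 31.9 in *PRELP*-/-, and did not pass (0.34 ± 0.14, adjusted p = 0.0895, and 0.065 ± 0.17).

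Several members changed in size or sign with the *WT* pair used as the control. *WT* replicates 1 and 2 did not overlap replicates 3 and 4 in 29 of the 39 tested members, and in 60.1% of all tested genes. The next genes were chosen after their values were seen. *Axin2*, a scaffold of the β-catenin destruction complex and a widely used readout of the pathway, had 27.1, 28.7, 16.4 and 15.1 CPM in *WT* and 26.6, 30.0 and 30.4 in *OMD*-/-. Its *OMD*-/- log2 fold change was 0.41 ± 0.21 against all 4 *WT* libraries (adjusted p = 0.176, edgeR), 0.058 against replicates 1 and 2 (adjusted p = 0.728) and 0.88 against 3 and 4 (adjusted p = 0.000290). *Frzb*, a secreted frizzled-related protein first known from cartilage, had 9.90, 8.51, 2.04 and 2.39 CPM in *WT* and 6.26, 6.02 and 6.44 in *OMD*-/-, and its *OMD*-/- change turned from -0.57 against the first pair (adjusted p = 0.0265) to 1.49 against the second (adjusted p = 0.000453). *Sfrp2*, at 48.0, 45.5, 22.1 and 22.4 CPM in *WT* and 42.5, 46.2 and 49.6 in *OMD*-/-, went from -0.023 (adjusted p = 0.886) to 1.05 (adjusted p = 5.79e-05). *Sfrp4*, at 0.698, 1.09, 4.07 and 4.07 and 4.38, 3.35 and 2.602 CPM, went the other way, from 1.98 (adjusted p = 0.00267) to -0.24 (adjusted p = 0.472).

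Members were called mostly higher in *OMD*-/- under either control pair. Against *WT* replicates 1 and 2 alone 20 members were called, 17 higher, 14 of them among the 16 above, and against *WT* replicates 3 and 4 alone 25 were called, 23 higher, with all 16 among them. The share of all genes called was 26.3% and 39.8% in these fits. With only the libraries of at most 19 counts on the 4 Y genes (*WT* 3 and 4, *OMD*-/- 2 and 3), a choice made after seeing the data, 26 members were called, 24 higher, with 53.7% of all genes called. *Xist* had 23019 and 27694 counts in these *WT* libraries and 2094 and 1677 in these *OMD*-/- libraries. The choice may therefore not match them for sex.

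For *PRELP*-/- against *WT*, 3 of 40 tested members passed (edgeR, Benjamini-Hochberg adjustment over 16581 genes), namely *Ndp*, *Sostdc1* and *Wnt2*, all higher. That is 7.5% of the tested members, beside 7.29% of all tested genes (1.4% higher and 5.89% lower). The median log2 fold change was 0.22 over the members and 0.023 over all genes, and 11 members had an unadjusted p under 0.05. The count turned on single libraries, and is no result about the members apart from the calls over all genes. Without *PRELP*-/- replicate 1, 15 members were called, 13 of them higher, with 22.2% of all genes called, and without *WT* replicate 3, 1 member was called. The 13 higher members were *Ndp*, *Sfrp1*, *Wnt2b*, *Dkk3*, *Wnt5b*, *Fzd7*, *Wnt2*, *Lgr5*, *Sostdc1*, *Fzd8*, *Fzd3*, *Fzd2* and *Fzd10*, and the lower ones were *Wnt4* and *Wnt9a*. In that fit *Sfrp1* differed by 1.13 ± 0.10 (log2, adjusted p = 0.000298) and *Wnt4* by -0.34 ± 0.078 (adjusted p = 0.0168).

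Replicate 1 of *PRELP*-/- was below both other *PRELP*-/- libraries in 30 of the 39 members tested in *OMD*-/- against *WT*, and in 44.8% of all genes tested there. Relative to the mean of replicates 2 and 3 it stood at 0.235 for *Lgr5*, 0.311 for *Lef1*, 0.405 for *Sfrp1* and 0.442 for *Wnt2b*. For *Wnt2* and *Sostdc1* the ratio was 1.67, for *Wnt9a* 1.64, and for *Wnt5a* 0.948. Its sum of fibroblast markers was 9931 CPM against 19490 and 19080.

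The knockouts were also compared with each other, which uses no *WT* library. None of the 40 members tested in *PRELP*-/- against *OMD*-/- passed (edgeR, smallest adjusted p = 0.690). Of 15805 genes tested 1 passed (0.00633%), and it was *Prelp*, the gene removed in *PRELP*-/-. DESeq2 also called none and limma-voom with sample weights called 6. The calls over all genes also varied over the alternatives, so these 6 are no result about the members apart from them. An unadjusted p under 0.05 was reached by 1 member, *Frzb*, with a log2 difference of 0.49 ± 0.18 (adjusted p = 0.690, edgeR). With replicate numbers as a block, 0 members and 43 genes were called, though no label pairs the libraries by these numbers. The log2 difference of *PRELP*-/- against *OMD*-/- was 0.15 ± 0.27 for *Ndp*, 0.12 ± 0.22 for *Wnt2*, 0.088 ± 0.24 for *Sostdc1*, -0.45 ± 0.34 for *Sfrp1* and -0.79 ± 0.43 for *Lef1*. None of these 5 differences passed with edgeR, and the errors of *Sfrp1* and *Lef1* were wide. The 6 members called with limma-voom were *Ndp*, *Sfrp2* and *Wnt7b*, higher in *PRELP*-/-, and *Lef1*, *Wnt4* and *Nkd1*, lower, with log2 differences from -0.51 to 0.50.

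Beyond the set, a fixed list of 76 other Wnt pathway genes was read in the same fits. In *OMD*-/- 25 of the 70 tested passed (35.7%, against 29.4% of all genes), 19 higher and 6 lower. By group, 7 of 14 secretion and co-receptor genes passed, 3 of 16 of the destruction complex and signal transduction, 3 of 12 nuclear cofactors, 3 of 10 planar cell polarity genes, 2 of 7 further inhibitors and 7 of 11 usual target genes, 5 of these higher and 2 lower. In *PRELP*-/- 3 of 70 passed (4.29%, against 7.29% of all genes), 1 higher and 2 lower, and in *PRELP*-/- against *OMD*-/- none did with edgeR or DESeq2, 3 had an unadjusted p under 0.05, and limma-voom with sample weights called 7. Without *WT* replicate 3 the *OMD*-/- count was 15 (23.1% of all genes), and without *OMD*-/- replicate 2 or 3 it was 13 (18.2% and 17.2% of all genes), while without *PRELP*-/- replicate 1 the *PRELP*-/- count was 21 (22.2% of all genes). Over all alternatives the count ran from 8 with close libraries summed to 50 with the libraries of few Y gene counts in *OMD*-/-, and from 0 with close libraries summed to 36 with limma-voom in *PRELP*-/-. In the fit with 50 called, 53.7% of all genes were called. These counts are no result about the pathway apart from the calls over all genes.

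The 3 genes called in both knockouts included the largest decreases of that list. *Tle2*, a Groucho corepressor that binds TCF/LEF factors, had 19.4, 18.3, 18.1 and 17.5 CPM in *WT*, 3.16, 3.90 and 3.06 in *OMD*-/- and 3.18, 4.85 and 4.09 in *PRELP*-/-. Its log2 fold changes were -2.44 ± 0.14 in *OMD*-/- (adjusted p = 1.64e-06, edgeR) and -2.19 ± 0.19 in *PRELP*-/- (adjusted p = 0.000468). *Dvl1*, a dishevelled protein that passes the signal on from frizzled, had 60.8, 57.2, 60.1 and 62.1 CPM in *WT*, 27.1, 23.0 and 21.7 in *OMD*-/- and 28.3, 24.1 and 24.2 in *PRELP*-/-, and fell by 1.33 ± 0.095 (adjusted p = 9.05e-06) and by 1.25 ± 0.13 (adjusted p = 0.00101). For both genes all 6 knockout libraries, *PRELP*-/- replicate 1 included, lay below all 4 *WT* libraries by more than the spread of either group. Their *OMD*-/- calls passed in each alternative, whereas in *PRELP*-/- the call of *Dvl1* was lost with the replicate block (adjusted p = 0.0583) and that of both with close libraries summed (0.219 for *Dvl1* and 0.0930 for *Tle2*). A gene on the opposite strand shares 0.721% of the exon bases of *Dvl1* and 1.57% of those of *Tle2*. *Ror1*, a receptor of *Wnt5a*, was at 6.78, 6.28, 6.06 and 5.97 CPM in *WT*, rose to 11.96, 13.8 and 16.9 in the *OMD*-/- libraries and measured 9.76, 13.5 and 16.0 in those of *PRELP*-/- (log2 1.18 ± 0.15, adjusted p = 0.000307, and 1.04 ± 0.20, adjusted p = 0.0169). The *PRELP*-/- call of *Ror1* was lost, at 0.0551 to 0.479, without *WT* replicate 2, 3 or 4 or *PRELP*-/- replicate 2 or 3, against either *WT* pair alone, with the replicate block, with the Y gene covariate and with close libraries summed.

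The other named increases in *OMD*-/- were the polarity genes *Prickle2* (log2 0.99 ± 0.10) and *Prickle1* (0.86 ± 0.17), the dishevelled antagonist *Dact1* (0.90 ± 0.14), the co-receptors *Ptk7* (0.58 ± 0.10) and *Reck* (0.60 ± 0.11) and the cell surface proteoglycan *Gpc3* (1.09 ± 0.23). The β-catenin cofactor *Pygo1* was higher by 0.71 ± 0.14. Of the usual targets, the cell cycle gene *Ccnd1* was higher by 0.44 ± 0.074 and the adhesion receptor *Cd44* by 0.51 ± 0.088. The 2 targets called lower were *Tbx3* (-0.35 ± 0.11, adjusted p = 0.0297) and *Bambi* (-0.41 ± 0.12, adjusted p = 0.0288). The 9 genes named as higher had adjusted p from 0.000113 to 0.00819 (edgeR) in *OMD*-/- and from 0.101 to 0.623 in *PRELP*-/-.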

How the data were processed

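RNA of 10 mouse bladder samples was sequenced by the authors as strand-specific libraries of poly(A) RNA. The deposited files hold raw read counts per gene and library, made with featureCounts. The deposited headers name HISAT2, whereas the submitters' processing notes list STAR 2.5.2b and both GRCm38 and hg38, and which aligner made these counts was not resolved. The strand setting and any use of the adaptor identifiers are not given in the sources used here. All 55536 identifiers matched GENCODE vM21 of GRCm38, so the counts were read as mouse. The authors' DESeq2 tables (mean normalised count, log2 fold change, standard error, statistic and p-values of each knockout against *WT*) were not used.

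Counts were fitted over all genes for each pair of genotypes with edgeR 4.0.16 (R 4.3.3): filterByExpr, TMM scaling, quasi-likelihood test with robust dispersion, two-sided, Benjamini-Hochberg adjustment over all genes tested, threshold 0.05. CPM used the totals of 20391437 to 46269079 counts, scaled by TMM over all 10 libraries, and RPKM the summed exon length. Totals were left unscaled for the Y genes, genes on the opposite strand, the level allowed by 0 counts and the correlations of libraries. Alternatives were RLE scaling, no filter, DESeq2 1.42.0, limma-voom 3.58.1 with sample weights, 1 fit of all libraries, a replicate block, close libraries summed, Y gene presence as a covariate, either *WT* pair alone, the libraries of few Y gene counts alone (added after seeing the data) and each library left out. The close libraries summed were *WT* replicates 1 and 2, *WT* 3 and 4, *OMD*-/- 2 and 3 and *PRELP*-/- 2 and 3. This leaves fewer libraries per group. Y genes counted as present from 10 CPM, which every *PRELP*-/- library reached. In *PRELP*-/- against *WT* that covariate therefore rests on the split between the *WT* pairs alone. The fits were tested on simulated data. Groups and replicate numbers came from the titles. The study counts mice, with group sizes other than those deposited, and no label ties a library to an animal, so p-values measure the spread between these libraries, which may be technical. For libraries of equal replicate number, deviations from the group mean correlated at 0.30, 0.178 and 0.146 between the knockouts. The correlations were 0.0394, -0.0428 and 0.0228 between *WT* and *OMD*-/-, and -0.0647, 0.139 and -0.105 between *WT* and *PRELP*-/-. Libraries of unlike number were not compared in this way, so a pairing by number is not shown. The closest libraries differed by more than sampling noise (chi-square per gene 3.10 or more, where 1 is noise) and were kept apart.

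Members were named with full values where they passed in any comparison or were among the 2 highest of their role by *WT* RPKM, and other pathway genes where they passed, up to 12 per comparison by adjusted p. *Lgr4*, *Tbx3* and *Bambi*, called lower in *OMD*-/-, were named in addition. The members and all gene lists were chosen with earlier results of these data known. Markers of nerve, fat and mesothelium were also read: nerve markers summed to 4.43 to 11.7 CPM, fat markers to 520 to 1918 (nearly all *Fabp4*) and mesothelial markers to 469 to 1054 (nearly all *Upk3b*, which urothelium also expresses).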

Additional observations from a re-analysis of the deposited data

Results flagged for a closer look

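1 value stood far from the rest of its group. *Wnt5b* in *WT* replicate 2 was at 15.75 CPM, and its gap to the next *WT* library was 0.869 of the range of the 4 *WT* libraries. Levels of 23 members were tested in *WT* in this way, and chance alone marks about 1 in 20 such groups. Every *OMD*-/- and *PRELP*-/- library was above this value, from 16.9 CPM. The *OMD*-/- call of *Wnt5b* passed in each alternative that was run.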

How the results depend on the processing

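In *OMD*-/- against *WT*, where 16 members were called, 25 were called with limma-voom with sample quality weights, 25 with *WT* replicates 3 and 4 only, and 26 with only libraries of at most 19 Y gene counts (added after seeing the data), but 11 with 1 fit of all 10 libraries and 11 with close libraries summed (the libraries most alike added together). Both lost *Fzd1*, *Fzd3* and *Notum*, the first also *Wnt2b* and *Lgr5* and the second also *Tcf7* and *Wnt9a*. *WT* and knockout libraries shared only a number, and with the replicate block 14 were called, and 12 to 17 with each library left out. Of the 16, 9 passed in each alternative run and none changed direction. For *PRELP*-/- against *WT*, where 3 were called, DESeq2 called 6, limma-voom with weights 24 and 1 fit of all 10 libraries 8. There the replicate block called 0 (with 115 genes in all), close libraries summed 0, the Y gene covariate 1 and *WT* replicates 1 and 2 only 0, and leaving out each library gave 1 to 15. Of *Ndp*, *Sostdc1* and *Wnt2* in *PRELP*-/-, none passed in each alternative, and none changed direction. Between the knockouts, limma-voom with weights called 6, the replicate block 0 and each left-out library 0. Over all genes the number called ran from 1658 to 8989 around 4899 in *OMD*-/-, from 13 to 6973 around 1209 in *PRELP*-/-, and from 0 to 1012 around 1 between the knockouts. In *OMD*-/- the share of all genes called was 29.4% in the main fit and 39.8% with *WT* replicates 3 and 4 only. It was 53.7% with only the libraries of few Y gene counts. In *PRELP*-/- it was 7.29% in the main fit and 22.2% without *PRELP*-/- replicate 1. The member counts are therefore no result about the members apart from the calls over all genes. For each of these changes the cause was not tested. RLE scaling gave the same 16 and 3 members, and with no filter *Fzd1* was lost from the 16 (adjusted p = 0.184) and *Nkd1* gained (0.0347). Members under the filter on low counts could not be compared at this depth.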
